A study of Mus musculus with 4 samples.

Results

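The collagen and laminin genes were described here by the brain cell type that carried their transcripts. They comprised every gene whose symbol named a collagen alpha chain (Col, a type number, a, a chain number) or a laminin alpha, beta or gamma chain (Lama, Lamb or Lamc with a number) and that was listed in both count tables. The rule gave 54 of the 19040 genes listed in both tables, of which 43 were collagen and 11 laminin genes. A further matching gene, Col6a4, was listed in the midbrain table only and held 3 UMIs in the wildtype and 2 in the transgenic library. Expression was measured by droplet single-cell RNA sequencing with 3′ tags and unique molecular identifiers (UMIs, which count captured transcripts rather than reads).

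There were 4 libraries, 1 for each combination of frontal cortex or midbrain with wildtype or transgenic mice. Wildtype animals were C57BL/6 littermates. Transgenic animals were of the Hua-Syn(A53T) strain, which carries human alpha-synuclein with the A53T substitution. All were 6-9 months old, and the design text gave 3 mice per group, with both regions of a genotype from the same group. The labels did not name the promoter that drives the transgene. Brains were dissociated by a protocol meant for glial and vascular cells, so the numbers of cells of each type follow that choice. With 1 library per group there was no replicate check of any difference, and no p-value is given. Levels are counts in 1000000 UMIs (CPM) summed over the cells of a type. Their 95% intervals are exact Poisson intervals, those of ratios are exact conditional intervals, and both cover counting error only.

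Libraries held 3775 to 7635 cells and 30712684 to 56588233 UMIs, with medians of 6900 to 8193 UMIs per cell. Pairs of libraries shared 3 to 15 cell barcodes. Collagen and laminin transcripts made up 0.0839% to 0.0997% of the UMIs. The deposited cell type labels were checked against fixed marker lists. Markers were highest under the matching label for endothelium (EC, 9 of 9), pericytes (PC, 8 of 8 and 7 of 8 in the 2 regions), smooth muscle (SMC, 7 of 7), astrocytes (AC, 9 of 10), microglia (MG, 8 of 8) and border macrophages (MAC, 7 of 7). Several labels went against their markers. The OPC label held the highest level of 9 of 12 fibroblast markers in the midbrain and of 7 of 11 in the frontal cortex, and the OLG label that of 7 of 8 meningeal barrier markers in the midbrain and of 6 of 8 in the frontal cortex. Summed meningeal barrier markers were nevertheless higher under OPC than under OLG in each library (44321 and 15544 CPM in the wildtype frontal cortex). In the frontal cortex the OPC label joined a cluster with fibroblast and meningeal barrier markers (50 wildtype and 16 transgenic cells) and a cluster with the highest level of all 8 oligodendrocyte precursor markers (29 and 19 cells). The former summed fibroblast markers to 19497 and 18617 CPM and meningeal barrier markers to 64396 and 85063 CPM. The split below put 19 and 8 of its cells in the meningeal-marker class. The midbrain precursor markers lay under the label imNeur (8 of 8). The label CPC held olfactory ensheathing markers in the frontal cortex (6 of 6) and choroid plexus markers in the midbrain (6 of 6). Labels are therefore printed as deposited, in capitals. Because the labels rest on the same transcripts, differences between types are a description and were not tested.

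Cells labelled OPC or OLG were also split by their own marker UMIs into fibroblast-marker, meningeal-marker and precursor-marker cells (at least 4 UMIs of the leading list and 2 times the next). Cells in which neither the fibroblast nor the meningeal list was 2 times the other were counted with the fibroblast-marker cells. That class held 37 and 13 cells in the wildtype and transgenic frontal cortex, and 80 and 31 in the midbrain, of which 15 and 9, then 23 and 6, were such mixed cells. Median fibroblast-marker UMIs per cell in it were 155, 53, 204.5 and 212 in that order, against 40, 16, 17 and 9 UMIs of meningeal markers and 8, 1, 3.5 and 7 of precursor markers. The classes are ranges of a score. Of the cells labelled OPC, 14 of 79, 2 of 35, 16 of 93 and 3 of 37 had a leading list between 1.5 and 3 times the next. Without the mixed cells, Col4a1 was at 900 CPM in the wildtype frontal cortex (621 with them) and at 496 CPM in the wildtype midbrain (433 with them), and Col1a1 was at 809 CPM (726) and 845 CPM (747). The class values given below leave out the transgenic frontal cortex, with its 13 cells. Those cells held Col4a1 at 244 CPM, Col4a5 at 134, Col15a1 at 97.6 and Col13a1 at 36.6, against 621, 348, 466 and 261 CPM in the wildtype. Col1a1 and Col3a1 were higher in them, at 1061 and 512 CPM against 726 and 357 CPM.

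As background, basement membranes are thin sheets of matrix that wrap brain capillaries and line the brain surface. Their main polymers are type IV collagen and laminins. Each type IV collagen molecule is a trimer of alpha chains, and each laminin is a trimer of 1 alpha, 1 beta and 1 gamma chain, with the alpha chain deciding much of what cells bind. Fibrillar collagens such as types I, III and V form cross-banded fibres and are classically a product of fibroblasts. In the brain, the vessel wall and the meninges hold most of this matrix, and astrocyte end-feet supply the outer sheet around vessels.

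The paired organisation of the type IV collagen genes bears on which chains are found together. In the GENCODE annotation of GRCm38, Col4a1 (chromosome 8, 11198423 to 11312826, minus strand) and Col4a2 (11312805 to 11449287, plus strand) start head to head with starts 21 bases apart and overlapping. Col4a3 (chromosome 1, 82586921 to 82722059, plus strand) and Col4a4 (82448423 to 82586849, minus strand) have starts 72 bases apart. Col4a5 (chromosome X, 141475385 to 141689234, plus strand) and Col4a6 (141165403 to 141474076, minus strand) have starts 1309 bases apart. Col4a3 and Col4a4 were both highest in pericytes in all 4 libraries, and Col4a5 and Col4a6 both under the OPC label in 3 of them.

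The 250 bases before the start were read from RefSeq (GRCm38.p6) for 4 genes that stand for the main patterns below. These are Col3a1 (a fibrillar chain of fibroblast-marker cells), Col4a6 (fibroblast-marker and smooth muscle cells), Lama2 (pericytes, fibroblast-marker cells and astrocytes) and Lama5 (smooth muscle and endothelium). None of these windows overlaps an annotated exon. The RefSeq and GENCODE starts are the same base for 3 of the genes, while the RefSeq start used for Lama2 lies 2816 bases downstream of the GENCODE start, inside that gene model. Each is printed 5′ to 3′ on the strand of its gene. Capitals mark every match, on either strand, to 3 core promoter motifs, the TATA box TATAAA, the CCAAT box CCAAT and the GC box GGGCGG.
Col3a1, chr1:45311288-45311537, plus strand: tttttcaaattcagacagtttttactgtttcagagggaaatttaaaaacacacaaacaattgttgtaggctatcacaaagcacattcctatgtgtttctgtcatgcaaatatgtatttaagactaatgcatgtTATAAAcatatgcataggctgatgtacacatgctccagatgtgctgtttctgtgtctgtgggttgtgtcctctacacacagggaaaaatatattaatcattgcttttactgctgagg
Col4a6, chrX:141474077-141474326, minus strand: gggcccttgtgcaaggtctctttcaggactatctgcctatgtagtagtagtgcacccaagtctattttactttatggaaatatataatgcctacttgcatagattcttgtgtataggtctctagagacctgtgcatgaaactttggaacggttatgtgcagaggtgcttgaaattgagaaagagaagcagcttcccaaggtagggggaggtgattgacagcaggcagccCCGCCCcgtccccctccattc
Lama2, chr10:27616943-27617192, minus strand: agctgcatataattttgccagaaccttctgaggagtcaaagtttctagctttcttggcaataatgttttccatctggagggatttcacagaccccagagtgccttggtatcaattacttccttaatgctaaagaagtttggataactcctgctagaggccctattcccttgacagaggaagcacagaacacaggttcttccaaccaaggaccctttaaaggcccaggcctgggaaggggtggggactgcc
Lama5, chr2:180225860-180226109, minus strand: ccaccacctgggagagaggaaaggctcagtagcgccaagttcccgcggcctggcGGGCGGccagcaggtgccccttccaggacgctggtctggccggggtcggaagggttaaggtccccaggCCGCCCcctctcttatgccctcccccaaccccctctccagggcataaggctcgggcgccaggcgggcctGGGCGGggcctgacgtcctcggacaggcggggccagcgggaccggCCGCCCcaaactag
Col3a1 held a TATA box that began 117 bases before its start. Col4a6 held 1 GC box, on the opposite strand, 21 bases before its start. Lama5 held 4 GC boxes, at 196, 128, 59 and 14 bases, and Lama2 held none of the motifs. Over all 32851 RefSeq promoter windows of this length, 12.4% held TATAAA, 33.8% held CCAAT and 32.7% held GGGCGG. RefSeq entries were found for 39 of the 54 genes (43 windows), and 5, 13 and 23 of these windows held the 3 motifs. These are matches of letters, and no binding was measured.

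A gene was called measured in a library at 20 UMIs or more. By that count 46 collagen and laminin genes were measured in the wildtype and 41 in the transgenic frontal cortex, 50 in the wildtype and 46 in the transgenic midbrain, and 41 in all 4 libraries. The OPC label held the highest level of 14 and 9 genes in the frontal cortex and of 17 and 21 in the midbrain. Pericytes held that of 10 and 11, then 8 and 8, more than the OPC label in the transgenic frontal cortex and fewer in the other libraries. Smooth muscle was highest for 3 to 5 genes in each library and the OLG label for 6, 7 and 4 in the 3 libraries where it had at least 20 cells. In endothelium, the most numerous vascular type, 1 gene at most was highest in any library. No share over all genes is set beside these counts, so whether small pools lead for many genes was not tested. The interval of highest over second type left out no difference for 31 of 34 and 25 of 34 described genes in the frontal cortex. In the midbrain it did so for 29 of 36 and 28 of 35. Of the genes highest under OPC in the transgenic frontal cortex, Col11a2, Col13a1, Col15a1, Col26a1 and Col6a3 were not clear of the second type. Col1a1, Col3a1, Col4a6 and Lama1 were. Over types with enough cells in both libraries, the highest type was the same in wildtype and transgenic for 33 of 41 genes in the frontal cortex and 40 of 46 in the midbrain.

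**Figure D1:**
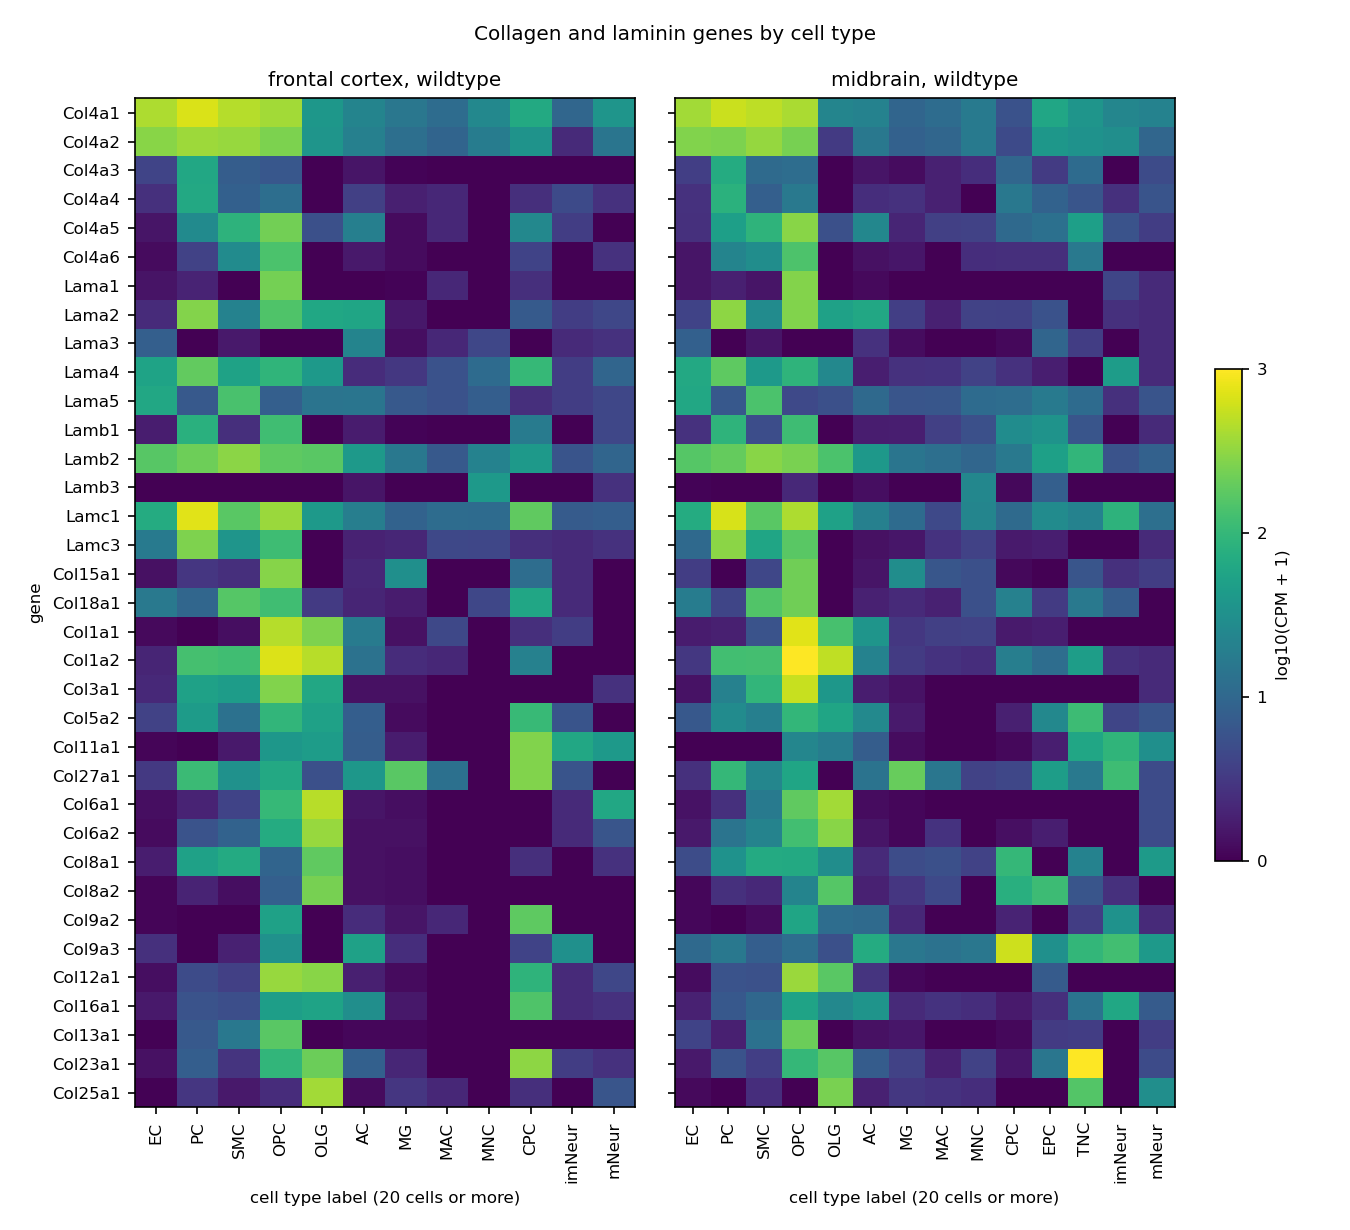
Levels of 35 genes described with values, as log10(CPM + 1), by deposited cell type label in the wildtype frontal cortex and wildtype midbrain; rows are genes, columns are labels with at least 20 cells, and a lighter (yellow) field is a higher level. Col1a1, Col1a2 and Col3a1 are highest under the OPC label in both regions, while Col4a3, Col4a4, Lama2, Lama4, Lamc1 and Lamc3 are highest in pericytes.

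Type IV collagen separated the cell types by chain. The common chains Col4a1 and Col4a2 were carried by endothelium, pericytes, smooth muscle and fibroblast-marker cells alike. Among vascular types Col4a3 and Col4a4 were highest in pericytes, and Col4a5 and Col4a6 were carried by fibroblast-marker cells and smooth muscle. In mice as in humans, Col4a3, Col4a4 and Col4a5 are the chains of the kidney filter whose loss gives Alport syndrome.

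Col4a1 in endothelium stood at 432, 521, 387 and 511 CPM in the wildtype and transgenic frontal cortex and the wildtype and transgenic midbrain, the order used for all sets of 4 values below. In pericytes Col4a1 was at 677, 1083, 569 and 690 CPM, above endothelium in each library. In the transgenic midbrain the OPC label held more, with Col4a1 at 738 CPM. Fibroblast-marker cells had Col4a1 at 621 CPM (wildtype frontal cortex), 433 (wildtype midbrain) and 829 (transgenic midbrain). They had Col4a2 at 410, 237 and 502 CPM. Smooth muscle had Col4a1 at 462, 580, 506 and 494 CPM, and astrocytes at 20.5 to 24.7 CPM. Microglia were lower still at 6.63 to 14.3 CPM, and 1 microglial cluster in each region held most of that, with 127 and 81.1 CPM in cluster 8 of the frontal cortex and 61.8 and 34.4 CPM in cluster 16 of the midbrain. In cells thinned to 3000 UMIs, 65.0% to 73.6% of endothelial cells and 74.3% to 88.7% of pericytes had a Col4a1 UMI, against 1.96% to 2.99% of microglia. The share of Col4a1 among Col4a1 and Col4a2 UMIs was 58.3% to 59.8% in endothelium and 65.4% to 68.8% in pericytes, so the balance between these chains differed between the vascular types in all 4 libraries.

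Col4a3 in pericytes was at 61.4, 60.7, 68.9 and 58.5 CPM and Col4a4 at 63.4, 71.3, 80.4 and 90.2 CPM. Neither gene moved by 1.5 times between genotypes there. In smooth muscle Col4a3 reached 5.74 to 9.85 CPM and in endothelium 0.57 to 3.11 CPM. The choroid plexus markers of the midbrain CPC label came with a different mix, in which Col4a3 made up 20.2% and Col4a4 34.9% of type IV collagen UMIs in the wildtype library, against 6.6% and 7.7% in wildtype midbrain pericytes.

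Endothelium held at most 1.63 CPM of Col4a5, while smooth muscle carried it at 85.0, 81.3, 87.7 and 84.3 CPM. The 4 smooth muscle values lie within each other's intervals. Fibroblast-marker cells carried more Col4a5, with 348 CPM in the wildtype frontal cortex, 300 in the wildtype midbrain and 258 in the transgenic midbrain. Col4a6 followed Col4a5, with 225, 147 and 185 CPM in the same cells and 26.8, 21.0, 28.6 and 26.2 CPM in smooth muscle. Astrocytes had Col4a5 at 18.6, 15, 23.2 and 18.4 CPM but Col4a6 below 1 CPM. Col4a5 thus made up 27.9% to 38.0% of the type IV collagen UMIs of astrocytes, while in endothelium Col4a1 and Col4a2 together made up nearly all of them. The share of astrocytes with a Col4a5 UMI, thinned to 3000 UMIs, was 4.57% to 6.16%, against 0.13% to 0.37% in endothelium and 0.08% to 0.45% in microglia.

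**Figure D2:**
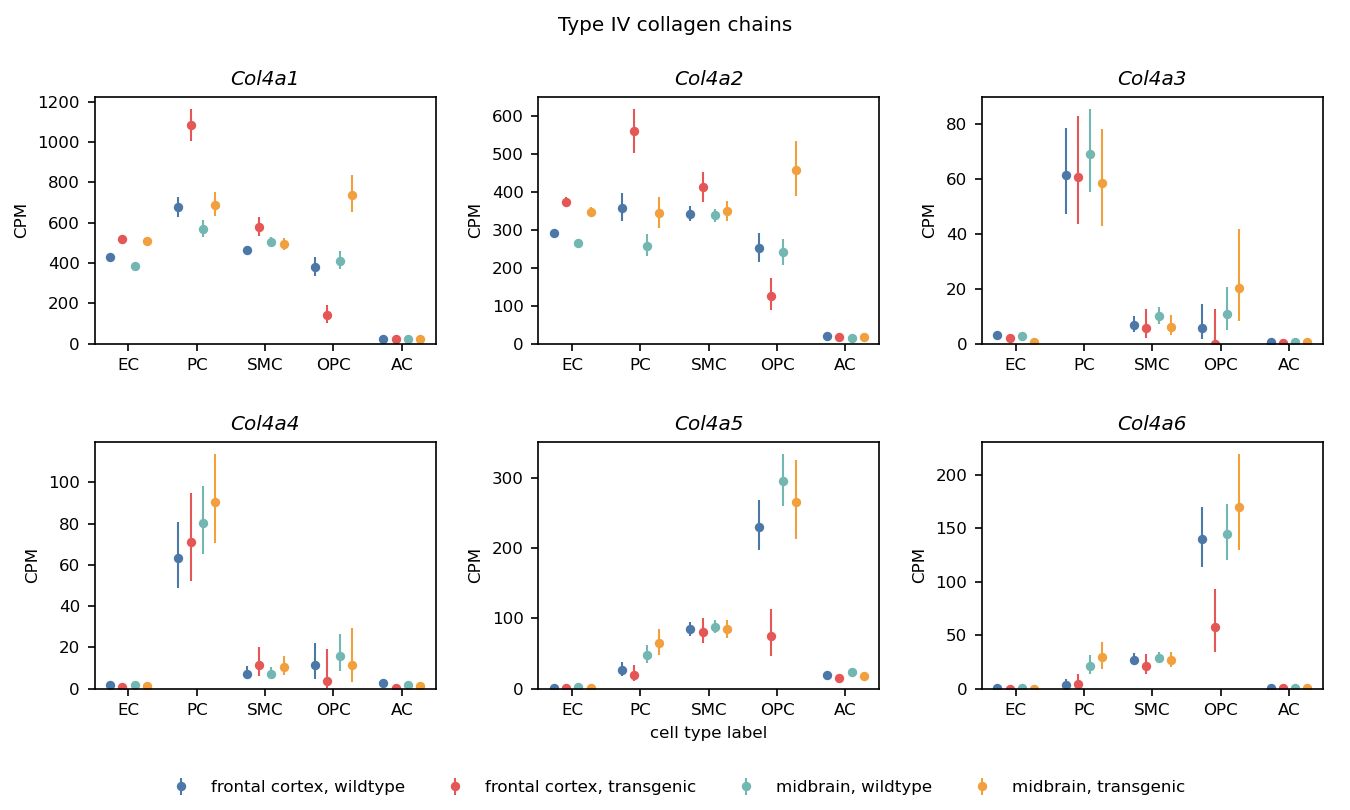
CPM of the 6 type IV collagen genes in cells labelled EC, PC, SMC, OPC and AC, with 1 point for each of the 4 libraries and bars for the exact 95% Poisson interval. Col4a1 and Col4a2 are high in EC, PC and SMC and, at 738 and 459 CPM, in OPC-labelled cells of the transgenic midbrain. Col4a3 and Col4a4 are high in PC, and Col4a5 and Col4a6 in OPC-labelled cells and SMC. The precursor-marker cluster makes up 19 of 35 OPC-labelled cells in the transgenic and 29 of 79 in the wildtype frontal cortex. Fibroblast-marker cells there had Col4a1 at 244 CPM (transgenic) and 621 CPM (wildtype). The part of the cluster in the low transgenic OPC value was not tested.

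Laminin alpha chains also differed by cell. Lama1 was found in fibroblast-marker cells, Lama2 and Lama4 in pericytes, Lama5 in smooth muscle and endothelium, and Lama3 in arterial endothelium and frontal cortex astrocytes. As background, Lama4 and Lama5 are the classical endothelial alpha chains, and loss of Lama2 causes a congenital muscular dystrophy with brain involvement.

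Lama1 under the OPC label was at 238, 81.7, 277 and 219 CPM. In fibroblast-marker cells Lama1 reached 398 CPM in the wildtype frontal cortex, 282 in the wildtype midbrain and 240 in the transgenic midbrain, and meningeal-marker cells held 52.6 to 55.4 CPM in the wildtype libraries. No Lama1 UMI was found in the wildtype OLG label, and endothelium, pericytes, smooth muscle and astrocytes stood at 1 CPM or less in every library. Lama1 made up 49.1% and 43.6% of the alpha chain UMIs under the wildtype OPC label.

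Lama2 in pericytes was at 275, 312, 306 and 316 CPM, and it was 53.0% to 65.7% of their alpha chain UMIs. Fibroblast-marker cells had Lama2 at 211 CPM (wildtype frontal cortex), 284 (wildtype midbrain) and 320 (transgenic midbrain). Astrocytes carried Lama2 at 56.4, 44.4, 62.6 and 49.7 CPM, with a UMI in 14.2% to 17.1% of cells thinned to 3000 UMIs. Microglia gave 0% to 0.45% and endothelium 0.19% to 0.86% by that measure, so the astrocyte share was above the level found in these types.

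Lama4 in pericytes was at 190, 268, 180 and 152 CPM and in endothelium at 54.6, 45.7, 64.4 and 47.9 CPM. Lama5 had the reverse order. Smooth muscle held Lama5 at 136, 104, 139 and 117 CPM, endothelium at 61.8, 60.4, 62.2 and 65.7 CPM, and pericytes at 5.74 to 12.7 CPM. In endothelium the alpha chain UMIs were split nearly evenly, with Lama4 at 38.5% to 46.9% and Lama5 at 45.3% to 52.8%. In smooth muscle Lama5 made up 58.3% to 66.7% of them.

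Lama3 in astrocytes differed by region. Astrocytes held Lama3 at 21.5, 15.6, 1.70 and 1.04 CPM, so both frontal cortex libraries were above both midbrain libraries and the intervals did not overlap between regions. Endothelium showed no such split, with Lama3 at 6.61 to 8.92 CPM in all 4 libraries. Within endothelium Lama3 lay in the arterial-marker clusters, at 20.1 and 21.7 CPM in cluster 5 of the frontal cortex and 30.2 and 23.7 CPM in cluster 9 of the midbrain, against 1.9 to 4.0 CPM in cluster 0. Pericytes held no Lama3 UMI. In thinned cells, Lama3 was found in 6.00% and 4.09% of frontal cortex and in 0.32% and 0.17% of midbrain astrocytes.

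**Figure D3:**
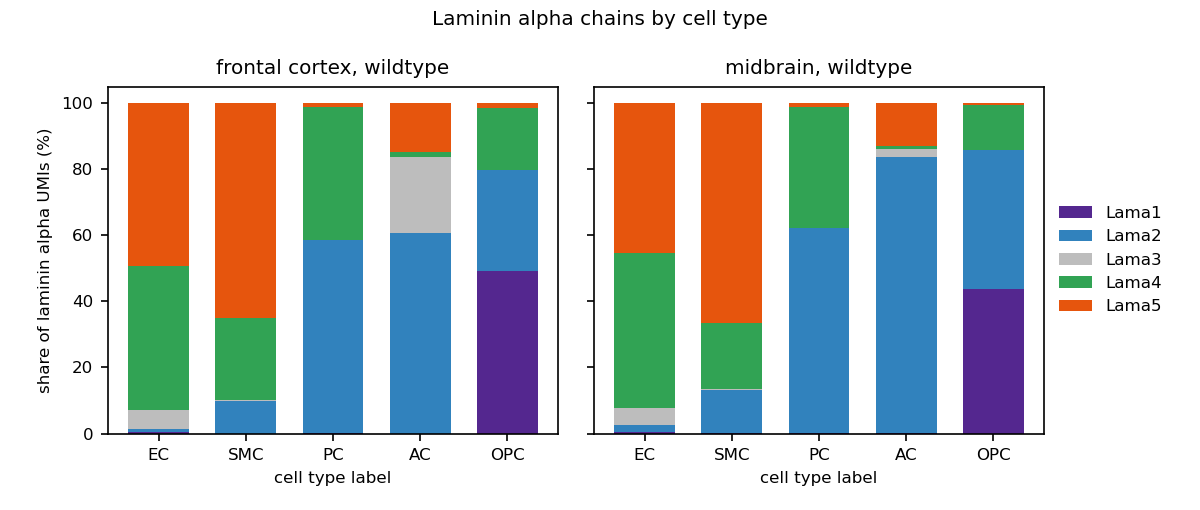
Share of laminin alpha chain UMIs (%) held by Lama1 to Lama5 in cells labelled EC, SMC, PC, AC and OPC of the wildtype frontal cortex and wildtype midbrain. EC are divided between Lama4 and Lama5, SMC are mostly Lama5, PC are Lama2 and Lama4, and Lama1 is 49.1% and 43.6% in OPC-labelled cells against a thin or no segment in the others; Lama3 is 23.2% in frontal cortex AC and 2.3% in midbrain AC.

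Among the beta chains, Lamb2 was carried by all vascular types and Lamb1 by a narrower set. Lamb2 stood at 303, 290, 291 and 282 CPM in smooth muscle, at 166, 166, 160 and 156 CPM in endothelium and at 215, 203, 196 and 177 CPM in pericytes, and no pair of libraries differed by 1.5 times. Lamb1 in pericytes was at 79.9, 105, 88.6 and 89.0 CPM and at most 4.78 CPM in endothelium and smooth muscle. Lamb1 accordingly made up 27.1% to 34.0% of beta chain UMIs in pericytes, 32.1% to 59.7% under the OPC label and 0.5% to 2.0% in endothelium. In the midbrain CPC label Lamb1 was the larger part, with 64.1% and 67.5%.

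Lamc1, the gamma chain of most laminins, was highest among the labels in pericytes, at 724, 702, 651 and 513 CPM. Fibroblast-marker cells had Lamc1 at 512 CPM (wildtype frontal cortex), 436 (wildtype midbrain) and 380 (transgenic midbrain), smooth muscle at 135 to 170 CPM and endothelium at 68.2 to 76.4 CPM. Lamc3 was also highest in pericytes, at 262, 273, 300 and 264 CPM, and endothelium had 7.22 to 16.1 CPM. Pericytes thus held 26.6% to 34.0% of their gamma chain UMIs as Lamc3 and endothelium 9.4% to 19.1%. Lamb3, which joins Lama3 in the laminin of epithelial anchoring structures, was scarce. In the label MNC, which held leukocyte markers, Lamb3 was at 40.9, 54.5, 23.4 and 17.95 CPM, from only 12, 8, 16 and 4 UMIs.

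Collagens of the basement membrane zone other than type IV followed other vessel segments. Col18a1, whose C-terminal fragment is endostatin, was at 160, 254, 154 and 156 CPM in smooth muscle and at 170, 230 and 219 CPM in fibroblast-marker cells of the wildtype frontal cortex, wildtype midbrain and transgenic midbrain. Within endothelium Col18a1 lay in the arterial-marker clusters, at 53.9 and 67.2 CPM in cluster 5 of the frontal cortex and at 106 and 109 CPM in cluster 9 of the midbrain. Clusters 0 and 6 of either region had 1.0 to 5.3 CPM of Col18a1. Col15a1, the related chain, was at 466, 254 and 397 CPM in those fibroblast-marker cells and at 28.4 to 30.5 CPM in microglia of all 4 libraries.

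Fibrillar collagens split the fibroblast-marker cells from the mural cells by chain. Type I collagen is normally a trimer with more alpha 1 than alpha 2 chains. Col1a1 (chromosome 11, 94936224 to 94953042) stood at 726, 747 and 944 CPM and Col1a2 (chromosome 6, 4504814 to 4541544) at 1051, 1183 and 986 CPM in fibroblast-marker cells of the wildtype frontal cortex, wildtype midbrain and transgenic midbrain. In pericytes Col1a2 was at 129, 123, 122 and 126 CPM, but Col1a1 was at 0, 1.52, 0.82 and 0 CPM. Smooth muscle showed the same gap, with Col1a2 at 121, 146, 127 and 121 CPM and Col1a1 at 0.30 to 6.09 CPM. The share of Col1a1 among type I collagen UMIs was therefore 0% to 1.2% in pericytes and 0.2% to 4.8% in smooth muscle, against 39.1% to 57.8% under the OPC label.

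Astrocytes carried both type I chains at low levels. Col1a1 in astrocytes was at 16.8, 13.5, 35.8 and 45.4 CPM and Col1a2 at 12.5, 16.3, 20.3 and 20.3 CPM, so Col1a1 made up 57.4%, 45.2%, 63.8% and 69.1% of the type I UMIs. Both midbrain libraries were above both frontal cortex libraries in Col1a1. In cells thinned to 3000 UMIs, 5.42%, 3.62%, 9.96% and 11.8% of astrocytes had a Col1a1 UMI, against at most 0.41% of endothelial cells and microglia. Before thinning, 11.7%, 9.10%, 18.3% and 23.9% of astrocytes had one. Among astrocyte clusters Col1a1 was high in cluster 1 of the midbrain (48.5 and 59.5 CPM) and cluster 3 (49.5 and 53.3 CPM) and low in cluster 4 (8.1 and 5.0 CPM). Dcn, the proteoglycan that marked the fibroblast-marker cells (7467 CPM under the wildtype midbrain OPC label), was at 0.59 and 2.43 CPM in wildtype astrocytes of the frontal cortex and midbrain. It was at 0.75 and 3.46 CPM in endothelium, which had at most 1.08 CPM of Col1a1. Dcn is 1 marker of the fibroblast list. The whole list summed to 129 and 57.02 CPM in wildtype astrocytes of the frontal cortex and midbrain, and to 3238 and 2627 CPM in wildtype endothelium. In each region 1 marker of that list was highest in endothelium. The part of RNA from fibroblast-marker cells in the astrocyte Col1a1 levels was not tested.

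**Figure D4:**
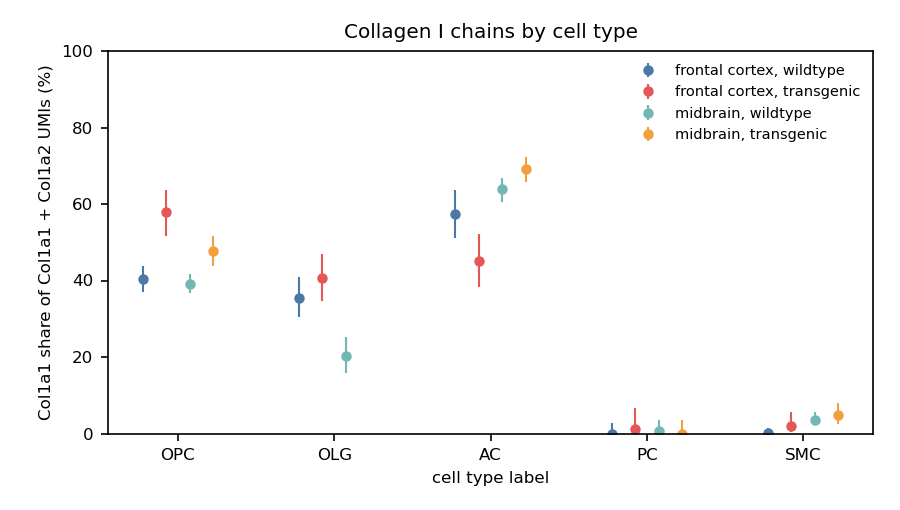
Share of Col1a1 (%) among the UMIs of Col1a1 and Col1a2 in cells labelled OPC, OLG, AC, PC and SMC, 1 point per library with its exact 95% binomial interval. PC and SMC lie between 0% and 4.8%, OPC-labelled cells between 39.1% and 57.8%, and AC between 45.2% and 69.1%.

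Col3a1, the type III chain of elastic tissues, was at 357, 538 and 613 CPM in fibroblast-marker cells of the wildtype frontal cortex, wildtype midbrain and transgenic midbrain. Smooth muscle held Col3a1 at 44.0, 85.1, 93.7 and 76.8 CPM and pericytes at 50.7, 37.9, 19.7 and 26.7 CPM. Col5a2, which joins type I fibres and limits their width, was at 161, 95 and 223 CPM in those fibroblast-marker cells and at 105 and 116 CPM under the frontal cortex CPC label. Col12a1, a fibril-associated chain, was at 600, 386 and 373 CPM in fibroblast-marker cells and at 289 and 168 CPM in meningeal-marker cells of the wildtype libraries. Col13a1, a transmembrane collagen, was at 261, 208 and 254 CPM in fibroblast-marker cells but at 55.4 and 43.8 CPM in the wildtype meningeal-marker cells.

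Meningeal-marker cells, found under both the OPC and the OLG label, had a profile of their own. In the wildtype frontal cortex and midbrain they held Col6a1 at 332 and 293 CPM and Col6a2 at 238 and 217 CPM. These type VI chains form beaded filaments. Col8a2, a network-forming chain, was at 158 and 85.8 CPM there, and Col25a1, a transmembrane collagen also found in amyloid plaques, at 257 and 151 CPM. Fibroblast-marker cells of the same libraries had Col6a1 at 258 and 226 CPM and Col25a1 at 58.6 and 36.3 CPM. All 20 and 26 Col25a1 UMIs of these were in the mixed cells, and the fibroblast-marker cells without them held 0. Type IV chains were low in meningeal-marker cells, with Col4a1 at 106 and 77.1 CPM against 621 and 433 CPM in fibroblast-marker cells. Col8a1, the partner of Col8a2, was at 124 and 22.8 CPM. In smooth muscle Col8a1 was at 67.2, 151, 67.0 and 59.5 CPM.

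Type VI collagen was also found outside these cells. Microglia carried Col6a3 at 17.8, 14.1, 10.1 and 7.10 CPM, and this chain was 93.7% to 97.5% of their type VI UMIs. Under the OPC label Col6a3 was 6.2% to 21.4% and under the OLG label at most 1.6%. Col27a1, a fibrillar collagen of cartilage, was the main collagen transcript that marked microglia, with 172, 163, 202 and 200 CPM. A Col27a1 UMI was found in 36.8% to 45.6% of microglia thinned to 3000 UMIs and in 0.13% to 0.80% of endothelial cells. Pericytes held Col27a1 at 97.6 to 125 CPM, and the frontal cortex CPC label at 270 and 169 CPM.

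The frontal cortex CPC label, with its olfactory ensheathing markers, held the highest measured level of several further chains. It also summed fibroblast markers to 13650 and 12066 CPM in the wildtype and transgenic library, against 13437 and 8371 CPM under OPC. Of 11 fibroblast markers, 1 was highest under CPC. Oligodendrocyte markers summed to 7724 and 7492 CPM there. The wildtype and transgenic CPC cells (73 and 27) had Col11a1 at 266 and 233 CPM, Col9a2 at 181 and 123 CPM, Col16a1 at 148 and 152 CPM, and Col23a1 at 309 and 289 CPM. Col11a1 and Col9a2 are best known from cartilage fibrils. Lama4 was also present, at 100 and 88.2 CPM, and made up 91.7% and 89.3% of their alpha chain UMIs. Precursor-marker cells of the wildtype frontal cortex (28 cells) had Col9a3 at 103 CPM, Col11a1 at 76.2 CPM and no Col1a1 UMI.

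The midbrain CPC label, with choroid plexus markers, carried Col9a3 at 594 and 693 CPM and Col8a1 at 98.1 and 84.1 CPM. Astrocytes had Col9a3 at 50.9, 41.0, 69.7 and 59.4 CPM in the 4 libraries. Endothelium had a Col9a3 UMI in 0.19% and 0.51% of thinned frontal cortex cells and in 2.46% and 2.21% of thinned midbrain cells. Choroid plexus markers summed to 1252 to 4687 CPM in endothelium, pericytes, smooth muscle, astrocytes and microglia of the midbrain and to 5.7 to 23.8 CPM in the frontal cortex. The part of this RNA in the midbrain Col9a3 levels of those types was not tested. In the midbrain, the label TNC (43 and 25 cells) held the highest Col23a1 level, at 980 and 1112 CPM, and the label EPC, with ependymal markers, had Col6a5 at 107 and 92.5 CPM.

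Of the 54 genes, 43 reached 20 CPM with 20 UMIs in some type. The 35 genes in the plot of levels by label were chosen by a rule on level and family. Another 9 of the 43 had highest levels of 31.1 to 126 CPM. The other 11 genes did not reach that level and had 0 to 69 UMIs in a library, among them Col2a1, Col6a6, Col9a1, Col10a1, Col17a1, Col19a1, Col20a1, Col22a1, Col28a1 and Lamb3.

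The genes that act with these chains were counted by the same measure, from 4 lists that hold none of the collagen and laminin genes. Pcolce, Dcn, Lum and Fbln1 of these lists are also fibroblast markers of the label check and the cell split. Their levels under OPC are therefore not separate from that check. Of 31 genes of collagen synthesis, processing and crosslinking, 30 were measured in each wildtype library. Of these, 7 in the frontal cortex and 9 in the midbrain were highest under the OPC label, 5 and 5 under OLG, and 5 and 4 in microglia. Pcolce, which speeds the trimming of procollagen, was at 358 and 525 CPM under the wildtype OPC label, and Loxl1, a crosslinking enzyme, at 40.5 and 64.6 CPM. P4ha1, a prolyl hydroxylase subunit, was at 240 and 201 CPM in wildtype microglia and at 194 and 208 CPM in wildtype astrocytes. Of 18 fibrillar matrix partners, 6 in the frontal cortex and 12 in the midbrain were highest under OPC, among them Dcn at 1840 and 7467 CPM and Lum at 334 and 1005 CPM.

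The 16 basement membrane partners had no single leading type. Nid1, which links laminin to type IV collagen, was highest in wildtype pericytes at 545 and 573 CPM, Egfl7 in endothelium at 1416 and 1402 CPM, and Ntn4 in smooth muscle at 689 and 571 CPM. The 16 receptors were most often highest in smooth muscle, 5 in each wildtype library. Itgb1, the shared integrin beta chain, was at 1482 and 1389 CPM there, and Bcam, a receptor for Lama5, at 459 and 415 CPM. Itga1, whose integrin binds type IV collagen, was highest in pericytes at 1754 and 1362 CPM, and Itga6, a laminin-binding chain, in endothelium at 596 and 594 CPM.

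For the comparison of genotypes, a gene was called when it differed by at least 1.5 times within a type (0.58 on the log2 scale), had 20 CPM in 1 library and 20 UMIs over both, and its interval left out no difference. Types needed 50 cells in both libraries. The frontal cortex gave 63 tests of a collagen or laminin gene in a type, of which 13 were higher and 3 lower in the transgenic library. Over all genes, 3.39% and 3.46% of the 56070 frontal cortex tests were higher and lower. The midbrain gave 65 such tests, of which 1 was higher and 1 lower, against 1.83% and 2.83% of 45264 over all genes. The median log2 ratio of the collagen and laminin genes tested was 0.27 in frontal cortex smooth muscle, 0.10 in pericytes and -0.02 in astrocytes, against -0.03, -0.04 and 0.01 over all genes tested in these types. Fibroblast-marker cells had too few cells for a genotype call. Erythroid (red blood cell) markers were higher in transgenic smooth muscle, pericytes, astrocytes and endothelium of both regions. Frontal cortex sums were 14.5, 20.5, 19.4 and 22.4 CPM in the wildtype, in that order, and 183, 417, 286 and 506 CPM in the transgenic library. Midbrain sums were 25.2, 56.6, 43.3 and 33.8 CPM, then 1288, 311, 239 and 250 CPM. The part of this RNA in the genotype ratios was not tested.

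In frontal cortex smooth muscle, 5 of 18 collagen and laminin genes were higher and 1 lower, against 3.45% and 4.18% of all genes tested there. The 5 were Col18a1, Col3a1, Col5a1, Col5a2 and Col8a1, 3 of them fibrillar chains. Col8a1 was at 67.2 CPM in the wildtype and 151 CPM in the transgenic library, a log2 ratio of 1.17 (0.87 to 1.47), and Col3a1 at 44.0 and 85.1 CPM, a ratio of 0.95 (0.56 to 1.34). Col5a1 went from 7.83 to 29.6 CPM (1.92, 1.12 to 2.73), Col5a2 from 12.1 to 35.4 CPM (1.55, 0.87 to 2.24) and Col18a1 from 160 to 254 CPM (0.67, 0.45 to 0.88). Col27a1 was lower, at 31.6 and 17.2 CPM (-0.88, -1.69 to -0.15). In midbrain smooth muscle Col8a1 was at 67.0 and 59.5 CPM (-0.17), Col3a1 at 93.7 and 76.8 CPM (-0.29), Col18a1 at 154 and 156 CPM (0.03) and Col27a1 at 22.6 and 19.7 CPM (-0.20), while Col5a1 and Col5a2 were under 20 CPM. Only Lamc3 was called there, at 57.6 CPM in the wildtype and 35.6 CPM in the transgenic library (-0.70, -1.09 to -0.32), 1 of 17 against 2.66% of all genes tested. Whether the regions differ in this was not tested.

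The transgenic smooth muscle pool of the frontal cortex held 92 cells and the wildtype 298. Fibroblast markers summed to 332 CPM in the wildtype and 325 CPM in the transgenic pool, and Col1a1 was at 0.30 and 2.87 CPM. Endothelial markers summed to 718 CPM in the wildtype and 371 CPM in the transgenic pool, astrocyte markers to 192 and 500 CPM, and microglial markers to 574 and 353.8 CPM, and the part of these in the differences was not tested. Of the other lists, Fn1 was at 110 and 363 CPM in the same cells (1.73, 1.52 to 1.94), Bgn at 339 and 588 CPM, Plod2 at 33.7 and 64.1 CPM and Loxl2 at 19.6 and 32.5 CPM, all called higher. These were 2 of 19 synthesis genes tested, 1 of 10 basement membrane partners, 1 of 5 fibrillar partners and 0 of 11 receptors. No gene of the 4 lists was lower in that type, where 3.45% and 4.18% of all genes tested were higher and lower. In cells thinned to 3000 UMIs, which leaves fewer UMIs, Col8a1 alone of the 5 was still called, and the ratios were 0.49 for Col3a1, 0.51 for Col18a1, 2.69 for Col5a1 and 2.53 for Col5a2. Col18a1 was also not called without the 5 cells with most UMIs of it (0.52). The lower ratio of Col27a1 turned to 0.059 in thinned cells and was not called in cells under 10% mitochondrial UMIs with 500 genes (-0.69).

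In frontal cortex pericytes, Col4a1, Col4a2 and Col5a3 were higher and Col8a1 lower among 18 tested, against 3.43% and 4.66% of all genes tested. Col4a1 was at 677 and 1083 CPM (0.68, 0.52 to 0.83) and Col4a2 at 359 and 560 CPM (0.64, 0.43 to 0.85). Col5a3, a minor type V chain, was at 81.9 and 126 CPM (0.62, 0.16 to 1.08), and Col8a1 at 51.7 and 21.2 CPM (-1.28, -2.25 to -0.41). A single transgenic pericyte held 56 of the 714 Col4a1 UMIs. Without the cell with most UMIs the Col4a1 ratio was 0.61 and still called, without the 5 such cells of each library 0.51 and not called, and in thinned cells 0.56 and not called. Col4a2 stood at 0.60, 0.56 and 0.42 in these settings, the last 2 not called, and Col5a3 was not called in thinned cells (0.54). Endothelial markers summed to 1176 CPM in the wildtype and 644 CPM in the transgenic pericyte pool, and astrocyte markers to 227 and 1036 CPM. The part of these in the differences was not tested. Of the other lists in these pericytes, 2 of 10 basement membrane partners and 1 of 7 fibrillar partners were lower and none higher. Of 10 receptors 1 was higher and 0 lower, and 0 of 17 synthesis genes were called.

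Col4a1 and Col4a2 were above wildtype in endothelium and pericytes of both regions, below the 1.5-fold rule except in frontal cortex pericytes. Endothelial Col4a1 had log2 ratios of 0.27 (0.22 to 0.32) in the frontal cortex and 0.40 (0.34 to 0.46) in the midbrain, and Col4a2 of 0.36 (0.30 to 0.42) and 0.38 (0.31 to 0.46). Midbrain pericytes had 0.28 (0.11 to 0.44) for Col4a1 and 0.41 (0.17 to 0.65) for Col4a2. The intervals left out 0 in each case but cover counting error only, and the median log2 ratio over all genes tested in endothelium was 0.01 in the frontal cortex and -0.01 in the midbrain. In smooth muscle Col4a1 was at 0.33 in the frontal cortex and at -0.03 in the midbrain. The laminin chains of endothelium did not follow: Lama4 was at -0.26 and -0.43, Lama5 at -0.03 and 0.08, Lamb2 at 0.00 and -0.04, and Lamc1 at 0.16 and 0.02. No endothelial collagen or laminin gene was called among 6 and 7 tested, where 1.09% and 0.929% of all genes were higher, and 1.03% of frontal cortex genes lower.

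In frontal cortex astrocytes, Col5a3, Lama5 and Col16a1 were higher among 11 tested and none lower, against 3.6% and 2.96% of all genes tested. Col5a3 was at 18.7 and 47.8 CPM (1.35, 1.08 to 1.64), Lama5 at 13.7 and 25.1 CPM (0.88, 0.53 to 1.23) and Col16a1, a fibril-associated chain, at 29.3 and 46.7 CPM (0.67, 0.43 to 0.92). Col16a1 was not called in thinned cells (0.45), nor Lama5 without cells holding 4 UMIs of other types' markers (0.65). Midbrain astrocytes had Col5a3 at 34.9 and 42.8 CPM, Lama5 at 9.66 and 8.16 CPM and Col16a1 at 34.9 and 42.1 CPM, none of them called. The astrocyte clusters were present in other proportions in the 2 frontal cortex libraries, with 34 wildtype and 116 transgenic cells in cluster 11. Within cluster 1, Col5a3 was at 20.2 and 42.3 CPM, Lama5 at 14.4 and 20.1 CPM and Col16a1 at 29.98 and 44.4 CPM. Within cluster 11 Col5a3 was at 9.1 and 80.7 CPM. The median mitochondrial share of the frontal cortex astrocytes was 5.27% in the wildtype and 9.68% in the transgenic library, and microglial markers summed to 745 and 380 CPM. The part of these in the astrocyte ratios was not tested. Of the other lists, 2 of 16 synthesis genes tested were called higher in these astrocytes (Bmp1, which trims procollagen, and Pxdn, which crosslinks type IV collagen) and none lower. Of 6 basement membrane partners, Sparc (188 and 345 CPM) and Smoc1 (8.71 and 20.6 CPM) were higher and Egfl7 (49.3 and 29.6 CPM) lower, with a median of -0.27 over the 6. Of 7 receptors, Ddr1 (49.3 and 86.1 CPM) was higher and Itga1 (22.8 and 11.9 CPM) lower, and the 1 fibrillar partner tested was not called.

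The remaining calls were in neuronal labels and the midbrain CPC label. Frontal cortex imNeur, with immature neuron markers, had Col4a1 at 8.75 and 29.9 CPM (1.77, 0.45 to 3.27) from 7 and 18 UMIs, 1 of 3 tested against 3.88% of all genes, and without the cell with most UMIs it was 1.01 and not called. In mNeur, with mature neuron markers, Col4a2 was higher (1.22, 0.00 to 2.59) and Col24a1 lower (-1.74, -2.95 to -0.65) among 5 tested, against 6.57% and 4.88%. These rested on 8 and 23 and on 27 and 10 UMIs. Col4a2 was not called there with TMM (1.21) or DESeq2 scaling factors (1.21) or under 10% mitochondrial UMIs (0.95), and neither was called in thinned cells (2.58 and -2.10). In the midbrain CPC label Col4a4 was at 15 and 22.7 CPM (0.60, 0.09 to 1.09), 1 of 6 against 1.41%. That ratio was 0.20 as a mean of per-cell CPM and not called, and it turned to -0.94 in thinned cells and to -2.05 without cells holding 4 UMIs of other types' markers. In imNeur no gene was lower (3.41% of all genes) and in the midbrain CPC label none was lower (3.85%). No collagen or laminin gene was called in the remaining types. Frontal cortex microglia gave 2 tests, where 1.26% of all genes were higher and 0.974% lower, and frontal cortex macrophages gave none. In the midbrain, astrocytes gave 11 tests (0.806% and 0.594% of all genes higher and lower), endothelium 7 (0.943% lower), microglia 2 (0.954% and 2.47%), macrophages 3 (4.41% and 5.88%) and pericytes 19 (2.5% and 3.88%). In midbrain smooth muscle no gene was higher (1.74% of all genes).

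**Figure D5:**
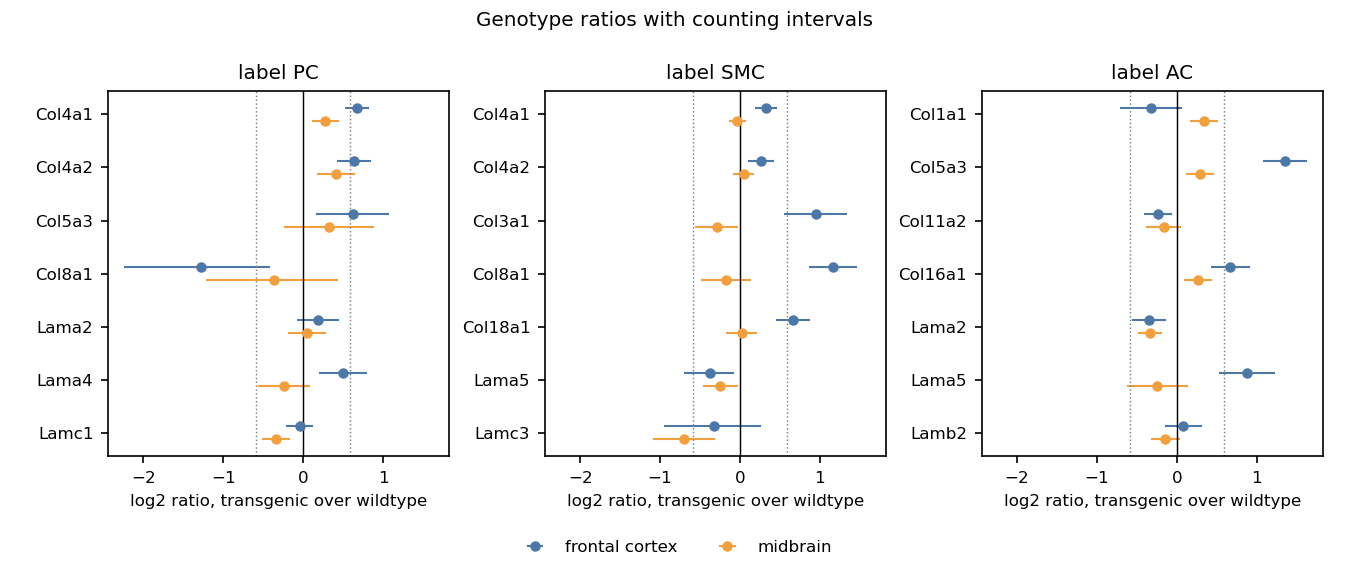
Log2 ratio of transgenic over wildtype CPM for 7 genes each in cells labelled PC, SMC and AC, in the frontal cortex and midbrain, with exact 95% conditional intervals; dotted lines mark 1.5 times. The frontal cortex ratios of Col3a1 and Col8a1 in SMC and of Col5a3 and Lama5 in AC lie to the right of the midbrain ones, and Col4a1 and Col4a2 in PC lie above 0 in both regions.

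Between regions the wildtype libraries gave 93 tests over 6 types, with 12 genes higher and 14 lower in the midbrain, against 3.36% and 3.74% of 41773 tests over all genes. The transgenic libraries gave 59 tests over 5 types, with 5 higher and 12 lower, against 3.85% and 3.82% of 34606. Endothelium and microglia gave no call in either genotype, where all genes tested were higher in 0.656% and 2.44% (wildtype) and 0.894% and 1.65% (transgenic) and lower in 0.134% and 0.994% and in 0.557% and 1.37%. Region, library and dissection cannot be told apart with 1 library each.

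In astrocytes several differences were found in both genotypes. In the wildtype, 4 of 13 genes were higher and 3 lower in the midbrain, against 6.58% and 7.06% of all genes, and in the transgenic 2 and 3 of 13, against 8.45% and 8.6%. Col1a1 had log2 ratios of midbrain over frontal cortex of 1.09 (0.82 to 1.36) in the wildtype and 1.75 (1.43 to 2.09) in the transgenic libraries. Col5a2 had 1.83 and 1.69, with 6.94, 7.30, 24.7 and 23.5 CPM in the 4 libraries. Col11a2, a cartilage fibril chain, was lower in the midbrain, at 74.6, 63.3, 28 and 25 CPM (-1.41 and -1.34), and so was Col27a1, at 38.0, 37.4, 12.9 and 16.3 CPM (-1.56 and -1.20). Lama3 was called in the wildtype only (-3.66, -4.29 to -3.08), because the transgenic frontal cortex value of 15.6 CPM was under 20. Lama5 was called lower in the transgenic comparison only (-1.62), where its frontal cortex level was the higher one described above.

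Pericytes of the midbrain had more Col4a5 and Col4a6 in both genotypes. Col4a5 was at 26.3, 19.7, 48.4 and 64.8 CPM (log2 ratios of 0.88 and 1.72) and Col4a6 at 2.92, 4.55, 21.3 and 29.2 CPM (2.87 and 2.68). Without cells holding 4 UMIs of other types' markers, 24, 24, 51 and 31 pericytes were left, and neither gene was called in either genotype. Col4a5 then turned to -0.19 in the wildtype. In the transgenic comparison Col4a6 had no frontal cortex UMI left. Its value of -0.94 rests on a floor of 3 UMIs set in place of none and gives no direction. In thinned cells Col4a5 was 0.68 in the wildtype and not called, and Col4a6 was 2.49 and 2.07 and not called. Col5a3 was lower in both (-0.66 and -0.96), but not called in thinned cells (-0.28 and -0.39). These were 2 higher and 3 lower of 19 in the wildtype, against 2.83% and 4.24% of all genes, and 2 and 4 of 19 in the transgenic, against 2.85% and 3.84%. Smooth muscle markers, whose cells carry both X-linked chains, summed to 1984, 1648, 2122 and 2198 CPM in the pericyte pools, and fibroblast markers to 909, 752, 935 and 737 CPM. Their part in the difference was not tested. In smooth muscle Col14a1 was higher in the midbrain of both genotypes, at 12.4, 7.65, 32.4 and 25.3 CPM (1.39 and 1.72), in wildtype among 4 higher and 0 lower of 17 against 2.05% and 1.25% of all genes. Without cells holding other types' markers, and in thinned cells, the transgenic frontal cortex smooth muscle held no Col14a1 UMI. The ratios of -0.34 and 1.56 there use the floor of 3 UMIs, and neither was called. In the transgenic libraries smooth muscle had 1 higher and 5 lower of 18, against 5.13% and 4.32%. Col18a1, Col5a1, Col5a2 and Col8a1, which were higher in transgenic frontal cortex smooth muscle, were among the 5, and these comparisons share that library.

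Fibroblast-marker cells of the wildtype libraries (80 in the midbrain, 37 in the frontal cortex) had 2 genes higher and 8 lower of 36 in the midbrain, against 5.17% and 7.87% of all genes. Col3a1 was the higher one of the well-covered genes, at 357 CPM in the frontal cortex and 538 CPM in the midbrain (0.59, 0.29 to 0.90). Col15a1 (466 and 254 CPM, -0.87), Col4a2 (410 and 237 CPM, -0.79) and Col12a1 (600 and 386 CPM, -0.64) were among the lower ones. Col3a1 was not called as a mean of per-cell CPM (0.14), with the deposited clusters 23 and 25 in place of the class (0.50) or without the mixed cells (0.43). Col12a1 was not called with TMM (-0.56) or DESeq2 scaling factors (-0.57), per-cell means (-0.56) or these clusters (-0.50), and Col4a2 not with the clusters (-0.54). Without the mixed cells Col15a1 was at -1.25, Col4a2 at -1.04 and Col12a1 at -0.95, all called. Meningeal markers were at a median of 40 UMIs per cell in the frontal cortex class and 17 in the midbrain class, and the part of this in the differences was not tested.

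Genes whose levels ran closest to Col4a1 and Col1a1 were found over 38 pools of a type in a library with at least 50 cells, among 13397 genes, as the Pearson correlation of log2(CPM + 1). The pools share libraries and types, so the values are a description. Closest to Col4a1 were Col4a2 (r = 0.97), Tns2, Utrn, Dlc1 and Arhgap29 (0.94 each). Closest to Col1a1 were Il33 and A730020M07Rik (0.84 each), and Ranbp3l, Gjb6 and Efemp1 (0.83 each).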

How the data were processed

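Single-cell 3′ libraries (Chromium v3) were made from dissociated frontal cortex and midbrain, per the labels' protocols. The authors deposited, for each region, a table of UMI counts per gene and cell with a cell annotation giving library, cell type label, cluster and mitochondrial percent per cell; the deposited percent was used for a filter only. Cell Ranger 3.0.0, Seurat 3.1.5 and mm10 are named in the submitters' processing notes. Filters and doublet treatment before deposit are not given in the sources used here, and no doublet caller was run. Counts were summed per library and label and divided by the pool's total UMIs (CPM). Shares of cells were compared after thinning to 3000 UMIs.

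The genes, marker lists and partner lists were chosen with earlier results of these data known. Described with values were genes with 20 CPM and 20 UMIs in a type, up to 30 by highest CPM, plus all type IV collagen and laminin chains. Every gene called between genotypes was described, but not every gene called between regions. For each of Col4a1 and Col1a1 the 5 genes with the highest correlation were named. Promoters came from RefSeq and coordinates from GENCODE. The values of 1 gene of the set are not reported here. The scripts were tested on simulated data. Software was Python 3.11.15 with numpy 2.4.6, scipy 1.17.1, pandas 2.3.3 and matplotlib 3.10.9, and R 4.3.3 with edgeR 4.0.16 and DESeq2 1.42.0, used for scaling factors only. Alternatives were other scalings, per-cell means, thinning, stricter cell, type and gene minimums, filters on other types' markers and other cell classes.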

Additional observations from a re-analysis of the deposited data

How the results depend on the processing

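No paired analysis was possible because each group had 1 library. Over all settings, 166 of 220 summary counts stayed within 1.5 times, and 615 of 668 named ratios moved by less than their interval. Of the genotype calls, 136 of 172 repeats were still called, but only 3 of 18 ratios were called in every repeat that gave a value. These were Col5a3 in astrocytes and Col8a1 in pericytes and smooth muscle of the frontal cortex. Both Col8a1 ratios gave no value without cells holding 4 UMIs of other types' markers. That filter left 24 and 24 pericytes and 59 and 20 smooth muscle cells in the wildtype and transgenic frontal cortex, and ratios needed 50 in both. Of the region calls, 416 of 496 repeats were still called, and 15 of 43 ratios were called in every repeat that gave a value. The causes of the changes below were not tested unless stated. The calls below were counted for collagen and laminin genes only, without a share over all genes in the same setting. They show how the counts depend on the setting and are not results about these genes.

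As a mean of per-cell CPM, 5 genotype calls were lower in the frontal cortex and 2 in the midbrain (3 and 1 as reported). Thinning to 3000 UMIs, which leaves fewer UMIs, gave 4 genotype calls higher and 1 lower in the frontal cortex, and 9 (wildtype) and 7 (transgenic) region calls lower. It turned Col27a1 in frontal cortex smooth muscle to 0.059 and Col4a4 in the midbrain CPC label to -0.94. The regional ratio of Col14a1 in fibroblast-marker cells became -0.026. That value uses a floor of 3 UMIs, because the thinned frontal cortex cells held no UMI of it. Under 10% mitochondrial UMIs with 500 genes, the transgenic frontal cortex OPC label was highest for 18 genes, and 0 genotype calls were higher and 2 lower in the midbrain. Without the cell with most UMIs these were 5 for the OPC label and 2 lower in the midbrain.

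Without cells holding 4 UMIs of other types' markers, 1 to 3 OPC-labelled cells were left, so that label was highest for 0 genes in all 4 libraries. Endothelium kept 69 of 2240, 52 of 861, 161 of 1860 and 98 of 792 cells, and the frontal cortex CPC label 0. The fibroblast list of that filter summed to 3238 and 2627 CPM in wildtype endothelium. The counts in this setting therefore rest on few or no cells of these types. Pericytes were then highest for 6 genes in the transgenic frontal cortex, the highest type was shared by 19 genes in the frontal cortex and 23 in the midbrain, and 4 genotype calls were higher in the frontal cortex, 5 higher and 2 lower in the midbrain, with 5 region calls lower in the wildtype. Ratios that turned were Col4a4 in midbrain CPC (-2.05) and, between regions, Col4a5 in wildtype pericytes (-0.19). Col4a6 in transgenic pericytes (-0.94) and Col14a1 in transgenic smooth muscle (-0.34) had no frontal cortex UMI left. Their values rest on the floor and give no direction. Pericytes left numbered 24, 24, 51 and 31. With Vtn not used in that filter, chosen after seeing the data, the counts were 0 for the OPC label, 6 for pericytes, and 19 and 23 shared. Genotype calls were then 3 higher in the frontal cortex, and 4 higher and 2 lower in the midbrain. Region calls were 7 higher and 5 lower in the wildtype. The ratios of the same genes were -2.03, -0.19, -0.94 and -0.34, the last 2 again resting on the floor.

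With no minimum CPM, genes of lower level were also tested, and no share over all genes was counted. Genotype calls were then 9 lower in the frontal cortex, and 3 higher and 12 lower in the midbrain. Region calls were 36 higher in the wildtype and 9 higher and 22 lower in the transgenic. Counting genes with 100 UMIs gave 5 genes highest under OPC in the transgenic frontal cortex. Types with 100 cells leave out the OPC label (0 genes), and pericytes were then highest for 18, 23 and 19 genes in the wildtype and transgenic frontal cortex and the transgenic midbrain. For 4 settings chosen after seeing the data, splitting the frontal cortex OPC label by cluster left it 0 genes in the transgenic library, where both clusters are under 20 cells; clusters 23 and 25 in place of fibroblast-marker cells gave 9 region calls lower in the wildtype; leaving out the mixed cells of that class moved no count of region calls by 1.5 times; and leaving out the 5 cells with most UMIs gave 8 genotype calls higher in the frontal cortex, 0 higher and 2 lower in the midbrain. A split at 4 times the next list gave 20 fibroblast-marker cells in the transgenic frontal cortex, since more cells then count as mixed, which the class includes.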
